A study of Mus musculus with 2 samples.

Results

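The Ly6 surface proteins described here are the products of 6 mouse genes, Ly6a, Ly6c1, Ly6c2, Ly6e, Ly6g and Ly6i, chosen by name from the 32285 genes of both count matrices, and all 6 have a row in each. The cells were CD45+ leukocytes sorted from tumors that the mouse colon carcinoma line MC38 formed under the skin of wild-type mice, and profiled by droplet single-cell RNA-seq that counts each captured transcript once by its molecular identifier (UMI). The first library came from several pooled unirradiated tumors (Control) and 1 library from several pooled tumors collected on day 4 after 1 dose of 20 Gy of ionizing radiation (IR). With 1 library per group there is no replicate and no test: all intervals given are 95% intervals for counting error only, and a difference between the libraries cannot be told apart from a difference between 2 pools of tumors.

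Ly6 proteins are small, disulfide-bonded domains held on the outer face of the plasma membrane by a glycosylphosphatidylinositol (GPI) anchor. Immunologists use them mainly as labels: the Ly6C antigen marks classical monocytes and some memory-like T cells, Ly6G marks neutrophils, and Ly6A, better known as Sca-1, marks hematopoietic stem cells, activated lymphocytes and some stromal cells. Several of the genes are also known to respond to interferons.

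All 6 genes lie on mouse chromosome 15 (GRCm38, GENCODE vM21) within 204 kb. Their order is Ly6e (ENSMUSG00000022587, chr15:74955051-74959905, plus strand), Ly6i (ENSMUSG00000022586, chr15:74979534-74983430, minus strand), Ly6a (ENSMUSG00000075602, chr15:74994877-74998031, minus strand), Ly6c1 (ENSMUSG00000079018, chr15:75044018-75048830, minus strand), Ly6c2 (ENSMUSG00000022584, chr15:75108158-75111970, minus strand) and Ly6g (ENSMUSG00000022582, chr15:75155240-75159126, plus strand). Ly6c1 and Ly6c2 are near copies, 59.3 kb apart, whose proteins antibodies to Ly6C do not usually separate. In the last 500 bases of their annotated coding transcripts, 13.8% of the 90-base windows of Ly6c1 and 19.3% of those of Ly6c2 also occur in a transcript of another Ly6 gene (Ly6c2 and Ly6a, and Ly6c1, respectively), so reads from those windows could not be assigned to 1 gene. None of the windows of Ly6a, Ly6e, Ly6g or Ly6i did.

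The 250 bases before the farthest upstream RefSeq start site (GRCm38.p6) of Ly6c1, Ly6c2 and Ly6g are shown because these neighbors were counted in different cells, as described next. Capitals mark matches, on either strand, to AGGAAG, the core bound by ETS factors such as PU.1, or to TATAAA. The coordinates are chr15:75048838-75049087 on the minus strand for Ly6c1, chr15:75111972-75112221 on the minus strand for Ly6c2 and chr15:75155011-75155260 on the plus strand for Ly6g, each written 5′ to 3′.
Ly6c1: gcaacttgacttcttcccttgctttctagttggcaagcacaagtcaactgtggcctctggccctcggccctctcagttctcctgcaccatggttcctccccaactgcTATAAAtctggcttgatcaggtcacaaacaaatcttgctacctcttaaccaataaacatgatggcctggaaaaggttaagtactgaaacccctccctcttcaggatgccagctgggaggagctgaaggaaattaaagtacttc
Ly6c2: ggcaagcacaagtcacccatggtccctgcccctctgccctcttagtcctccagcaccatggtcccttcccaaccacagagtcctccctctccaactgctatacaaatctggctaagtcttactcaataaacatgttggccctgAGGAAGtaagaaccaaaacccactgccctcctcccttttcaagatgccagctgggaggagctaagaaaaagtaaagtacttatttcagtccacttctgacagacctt
Ly6g: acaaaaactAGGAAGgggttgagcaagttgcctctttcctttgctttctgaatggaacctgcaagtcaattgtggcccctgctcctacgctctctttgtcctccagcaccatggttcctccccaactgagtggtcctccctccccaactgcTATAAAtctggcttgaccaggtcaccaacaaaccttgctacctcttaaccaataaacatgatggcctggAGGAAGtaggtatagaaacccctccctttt

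In a global alignment, Ly6c1 and Ly6c2 matched at 164 of 284 aligned positions, gaps included (57.7%). Ly6c1 and Ly6g matched at 172 of 294 (58.5%), and Ly6c2 and Ly6g at 142 of 303 (46.9%). The windows are offset against each other: ggcaagcacaagtca opens that of Ly6c2 but lies further into that of Ly6c1. Unmatched ends count as gaps, so these shares describe the windows as cut and do not measure how alike the promoters are. AGGAAG begins at position -107 in Ly6c2 and at -241 and -30 in Ly6g, counted from the start site, and is not in the Ly6c1 window. TATAAA begins at -143 in Ly6c1 and at -99 in Ly6g and is not in the Ly6c2 window. In Ly6c1 and Ly6g it lies in the same stretch, aactgcTATAAAtctggcttga, so the positions differ by the offset. The AGGAAG matches at -107 in Ly6c2 and -30 in Ly6g likewise lie in like stretches, ggccctgAGGAAGta and ggcctggAGGAAGta. Of 32851 promoter windows of the same length, 29.5% hold AGGAAG and 12.4% hold TATAAA. The interferon-type motifs TTCNNNGAA (GAS, in 7.02% of the windows) and an ISRE-like pair (GAAA, any 2 bases, then GAAA again, in 2.98%) had no match in the 3 windows. Ly6a, Ly6e and Ly6i had no promoter entry in the table used.

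The Control library held 4679 cells and the IR library 3410 after filtering to barcodes of at least 1000 UMIs, with medians of 7302 and 8268.5 UMIs per cell, and 6 barcodes occurred in both. Cells were assigned by marker lists that contain no Ly6 gene. The gates held 838 Control and 1113 IR monocytes, 67 and 134 nonclassical monocytes, 2076 and 466 macrophages, 27 and 203 neutrophils, 132 and 155 mature dendritic cells (DCs), 587 and 457 T cells and 315 and 423 NK cells. One field of the sample records gives a CD11b+ Ly6C-high sort, which would have selected on a member's protein, while the methods describe a CD45+ sort, and the libraries contain lymphocytes in these numbers. Levels are CPM, the UMIs of a gene divided by all UMIs of the gate and multiplied by 1000000.

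Ly6c2, the gene behind most Ly6C on monocytes, was highest in nonclassical monocytes (951 CPM), monocytes (674), CD8 T cells (580.04) and NK cells (424) in Control, and lowest in macrophages (71.2) and mature DCs (24.2). Each neighbor in this order differed beyond counting error. In the IR library the order was monocytes, CD8 T cells, neutrophils, nonclassical monocytes, NK cells (467 CPM), macrophages (440.2), basophils or mast cells (179) and mature DCs (153). The neutrophil place rests on a gate that also held C1q, and a stricter gate, described with Ly6g, had 572 CPM, below nonclassical monocytes. Ly6c2 was thus not restricted to myeloid cells in either library.
In monocytes Ly6c2 went from 3926 UMIs (674 CPM) in Control to 16020 UMIs (1485 CPM) in IR, a log2 ratio of 1.14 (1.09 to 1.19). In macrophages, the C1q-expressing gate, it went from 1438 UMIs (71.2 CPM) to 2403 UMIs (440.2 CPM), a log2 ratio of 2.63 (2.53 to 2.72), the larger ratio starting from the lower level. Nonclassical monocytes, which are known for low surface Ly6C, were as high as classical monocytes or higher in Control and had nearly the same level in both libraries, 951 and 949 CPM, a fold of 0.998 with a log2 interval of -0.18 to 0.17. The difference between the libraries was therefore uneven among these 3 gates. The nonclassical gate was taken before the monocyte gate, by Ace, Adgre4, Treml4 and Eno3, with no limit on monocyte-list genes. It could thus hold classical monocytes, and their part in its Ly6c2 level was not tested.
Among lymphocytes, CD8 T cells had 580.04 CPM of Ly6c2 in Control and 1145 in IR (log2 ratio 0.98, 0.88 to 1.08). Over all T cells the log2 ratio was 0.78 (0.72 to 0.85), and 0.54 (0.45 to 0.63) in T cells with no C1q UMI. CD4 T cells lacking Foxp3 had 156 and 907 CPM (2.54, 2.11 to 2.99), but from 57 and 47 cells, and the 5 cells with most Ly6c2 held 63.9% of the 471 UMIs in IR. NK cells had 424 and 467 CPM, a log2 ratio of 0.14 (0.03 to 0.25), small beside that of CD8 T cells and changing sign to -0.047 when the 6% of barcodes with the highest Scrublet doublet scores were also left out, and to -0.19 when gates were scored on 1000 UMIs per cell. Mature DCs had 27 UMIs in Control and 257 in IR (24.2 and 153 CPM), and 80.2% of the latter sat in 5 of 155 cells.
Plasmacytoid DCs were too few to set beside the others (10 and 9 cells), with 199 and 108 Ly6c2 UMIs, of which 1 cell held 37.2% and 54.6%.

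**Figure D1:**
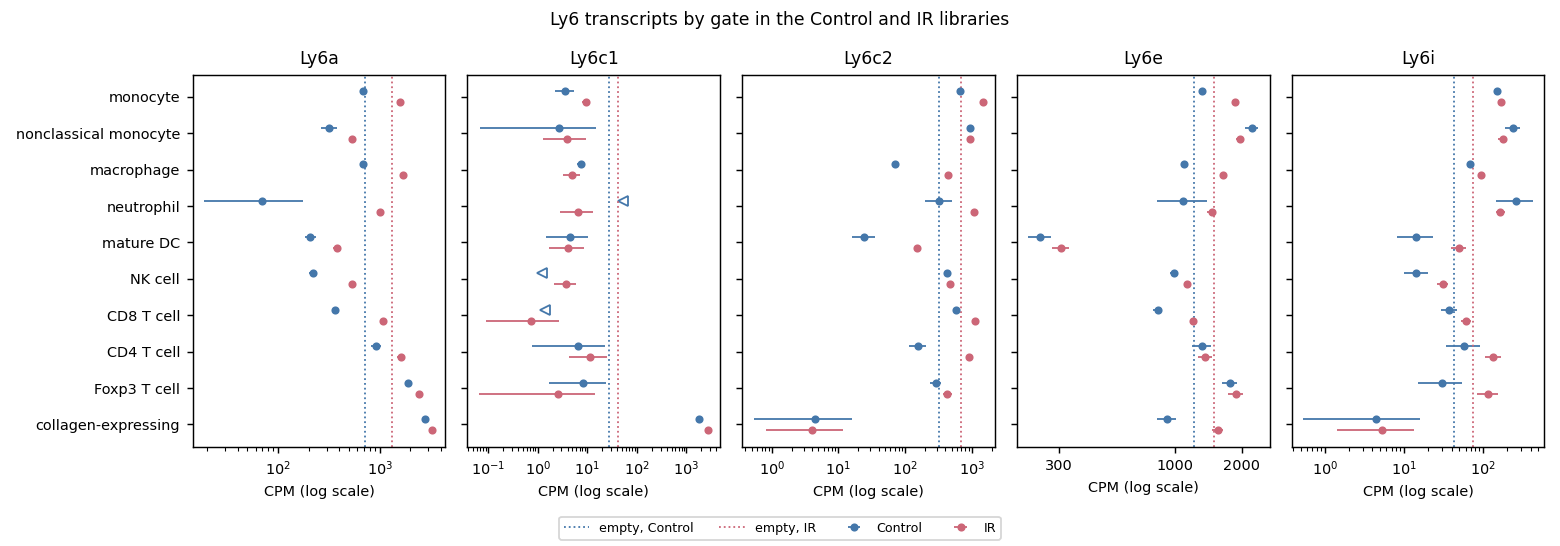
Level of 5 Ly6 genes in each gate (x axis, CPM on a log scale; y axis, gate) in the Control and IR libraries, with 95% Poisson intervals; open triangles mark the level that 3 UMIs would give where none was counted, and dotted lines mark the level in empty droplets. Ly6c1 stands at 1749 and 2691 CPM in collagen-expressing cells, where Ly6c2 is at 4.40 and 3.95 CPM, and was counted at no more than 11.5 CPM in the other gates drawn.

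Ly6c1 showed almost the reverse distribution. It is known as the Ly6C gene of endothelial cells and some stromal cells, and the endothelial gate held no cell in either library. In collagen-expressing cells, 31 in Control and 28 in IR, it had 795 and 2043 UMIs (1749 and 2691 CPM, log2 ratio 0.62, 0.50 to 0.74). Ly6c2 had 2 and 3 UMIs in the same cells, so the near copies were counted separately there.
These cells made up 0.663% of Control and 0.821% of IR cells and held 49.4% and 37.9% of all Ly6c1 UMIs. A further 38.1% and 57.0% came from barcodes outside every gate. Ptprc, the gene for the CD45 used in the sort, had only 3 and 12 UMIs in the collagen-expressing gate (6.60 and 15.8 CPM) against 509 and 513 CPM in monocytes. The part that non-leukocyte carry-over has in the summed Ly6c1 level was not tested.
In the leukocyte gates Ly6c1 was counted at no more than 11.5 CPM, under the 27.4 and 40.8 CPM of empty droplets. Free RNA, estimated as given with the empty droplets, would make up 43.3% and 32.5% of its level in monocytes and 32.7% and 48.0% in macrophages. Monocytes had 21 Control and 102 IR UMIs (3.605 and 9.45 CPM, log2 ratio 1.39, 0.70 to 2.14), but 1 cell carried 9 of the 21 and 1 cell carried 52 of the 102. Macrophages had 149 and 27 UMIs (7.38 and 4.95 CPM, log2 ratio -0.58, -1.23 to 0.02), and 1 cell carried 53 of the 149. The 5 cells with most Ly6c1 held 71.4% and 63.7% of the monocyte UMIs and 65.8% of those of Control macrophages. The 27 UMIs of IR macrophages lay in 23 cells.

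Ly6a, the Sca-1 gene, was spread more widely. In Control its order was Foxp3 T cells (1900.4 CPM), CD4 T cells (924), monocytes (684) and macrophages (677), which did not differ from each other beyond counting error, CD8 T cells (365) and nonclassical monocytes (319), likewise, and NK cells (221) and mature DCs (208), likewise. Collagen-expressing cells stood above all of them, with 2765 CPM in Control and 3274 in IR. In IR, macrophages (1701 CPM) and monocytes (1580.4) led the gates of at least 50 cells.
Monocytes had 3985 and 17051 Ly6a UMIs, 684 and 1580.4 CPM, a log2 ratio of 1.21 (1.16 to 1.26). Macrophages had 13674 and 9287, 677 and 1701 CPM, a log2 ratio of 1.33 (1.29 to 1.37). Unlike for Ly6c2, the ratios of these gates were close.
CD8 T cells had 365 and 1073 CPM of Ly6a, the highest ratio among the gates with at least 50 cells in each library (log2 1.56, 1.44 to 1.67). Over all T cells the log2 ratio was 0.998 (0.93 to 1.06), and 0.86 (0.77 to 0.96) in T cells with no C1q UMI. NK cells had 221 and 531 CPM (1.26, 1.13 to 1.40). Foxp3 T cells, the regulatory T cell gate with 54 and 29 cells, started highest and had 1900.4 and 2401 CPM (0.34, 0.19 to 0.48), so that the spread of Ly6a among T cell subsets was narrower in IR than in Control. Nonclassical monocytes had 319 and 538 CPM (0.75, 0.47 to 1.05) and mature DCs 208 and 378 CPM (0.86, 0.64 to 1.08). Every one of these intervals lay above 0. Among gates with fewer cells Ly6a was lower in IR in cDC2 (1559 and 558 CPM, -1.48, -1.75 to -1.22), where 5 cells held 98.3% of the Control and 86.5% of the IR UMIs, and in the 16 and 8 B cells (1563 and 531 CPM, -1.56, -2.40 to -0.81).

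**Figure D2:**
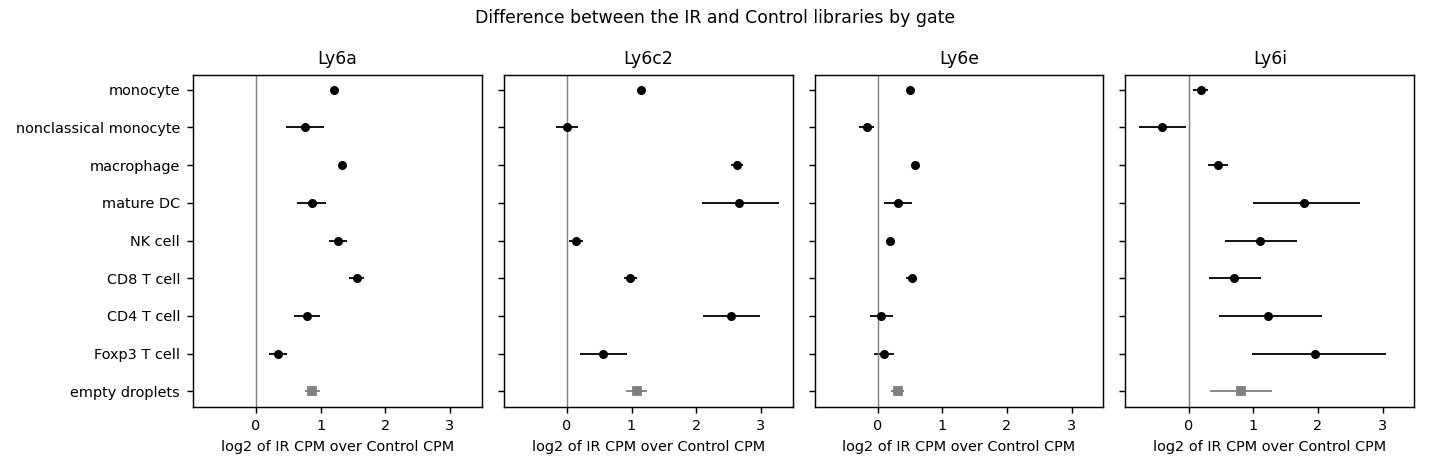
Log2 of IR CPM over Control CPM (x axis) of 4 Ly6 genes in the 8 gates drawn and in empty droplets (y axis), with 95% counting intervals from 1 library per group. Ly6a lies above 0 in all gates drawn, Ly6c2 is near 0 in nonclassical monocytes and NK cells, and Ly6e and Ly6i lie below 0 in nonclassical monocytes.

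Ly6e, a broadly expressed member known for restricting the entry of some viruses, was detected in all gates described here. Its Control levels ran from 248 CPM in mature DCs to 2213 in nonclassical monocytes, with monocytes at 1329, macrophages at 1099, NK cells at 993 and CD8 T cells at 839. Mature DCs were the exception in both libraries, at 248 and 306 CPM, while the other gates of at least 50 cells stood at 839 CPM or more. The 24 and 38 cells of the cDC2 gate had 1602 and 1583 CPM, so the low level was that of the mature DC gate and not of all DCs.
Monocytes had 7740 and 20143 Ly6e UMIs, 1329 and 1867 CPM (log2 ratio 0.49, 0.45 to 0.53), and macrophages 22179 and 8968, 1099 and 1643 CPM (0.58, 0.54 to 0.62). CD8 T cells had 839 and 1205 CPM (0.52, 0.44 to 0.61) and NK cells 993 and 1137 CPM (0.20, 0.13 to 0.27). Over all T cells the log2 ratio was 0.28 (0.23 to 0.33), and 0.16 (0.08 to 0.23) in T cells with no C1q UMI. In CD4 and Foxp3 T cells the interval held 0, from -0.13 to 0.23 and from -0.07 to 0.24. Nonclassical monocytes had the highest level in both libraries among gates of at least 50 cells, and a lower one in IR, 2213 and 1967 CPM (-0.17, -0.28 to -0.05). Basophils or mast cells, 35 and 64 cells, were also lower in IR, 1219.7 and 923 CPM (-0.40, -0.73 to -0.07).

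Ly6i, a close relative of Ly6a whose function is little known, was highest in monocyte gates among those of at least 50 cells in each library. Nonclassical monocytes had 238 CPM in Control and 178 in IR, monocytes 149 and 169, and macrophages 68.6 and 94.0, while NK cells had 14.4 and 30.8 and mature DCs 14.4 and 49.4. Of all its UMIs, macrophages held 51.3% in Control and 14.5% in IR, and monocytes 32.1% and 51.5%.
The log2 ratio was 0.19 (0.07 to 0.30) in monocytes and 0.45 (0.31 to 0.60) in macrophages, well under that of Ly6a 11.4 kb away in the same cells. In monocytes it was -0.092 among cells in the lowest bin of interferon-list UMIs, described with the interferon genes. It was -0.41 (-0.78 to -0.04) in nonclassical monocytes, on 88 and 225 UMIs, of which 1 Control cell held 29.5%. In NK cells and CD8 T cells it was 1.10 (0.55 to 1.68) and 0.70 (0.31 to 1.11), at levels no higher than 61.1 CPM, below the empty-droplet level of 74.3 CPM in IR. The free RNA estimate given with the empty droplets was 9.26% and 14.4% of the Ly6i level in NK cells and 7.95% and 27.7% in CD8 T cells.

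Ly6g, the gene of the neutrophil antigen, was almost absent. All kept cells together had 4 UMIs in Control and 20 in IR, of which 3 and 16 were in the neutrophil gate (27 and 203 cells). Neutrophils, whose other markers were abundant (64548 and 35306 CPM for 6 genes including S100a8 and S100a9), had a Ly6g UMI in 12 of the 203 IR cells. Macrophages had 0 UMIs in both libraries, which allows levels of up to 0.149 (Control) and 0.55 CPM (IR), and monocytes had 0 and 4. Most Ly6g UMIs were thus in the neutrophil gate, but few neutrophils had one at this depth.
The other members in neutrophils rested on few Control cells: Ly6c2 had 19 and 1316 UMIs (327 and 1085 CPM) and Ly6a 4 and 1217. The gate also held C1q at 654 and 1033 CPM. With the gate limited to barcodes with at least 4 of the 6 markers and with no C1q or Csf1r UMI, a setting added after the data were seen, 14 Control and 92 IR cells remained and Ly6c2 was 2 and 149 UMIs (72.4 and 572 CPM). Ly6a was then 0 and 72 UMIs, 276 CPM in IR against 1004 in the whole gate, Ly6e 651 and 772 CPM, and Ly6i 8 and 22 UMIs (289 and 84.5 CPM, log2 ratio -1.78, -2.999 to -0.40).

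Against all genes measured in the same gates, the members stood mostly on the side higher in IR. A gene was counted as higher where its IR CPM was at least 1.5 times its Control CPM, among genes with at least 20 UMIs in the libraries together. In monocytes 3 of 5 such members (Ly6a, Ly6c1, Ly6c2) were, against 8.96% of 10895 genes, and the members' median log2 ratio was 1.14 against -0.04 for all genes. In macrophages it was 2 of 5 (Ly6a, Ly6c2) against 7.72% of 11704 genes, with Ly6e just inside the limit at 1.495 times.
In T cells it was 4 of 5 (all but Ly6e), against 9.32%, but Ly6c1 there rests on 9 and 22 UMIs (log2 ratio 0.88, -0.29 to 2.18). Ly6c2 was 1.45 times its Control CPM, under the limit, in T cells with no C1q UMI. The free RNA estimate given with the empty droplets was 89.4% of the Control and 178% of the IR level of Ly6c1 in T cells. In NK cells 2 of 4 members (Ly6a, Ly6i) were higher, against 9.36%, and in mature DCs 3 of 4 (all but Ly6e), against 12.7%. Nonclassical monocytes had 1 of 4 (Ly6a) against 13.7%, and their members' median was -0.09 against -0.03. No member was lower in IR by the same fold in these 6 gates, with Ly6c1 in macrophages just inside the limit at 0.670 times, on 149 and 27 UMIs.

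Because the IR library held more monocytes and fewer macrophages, the members were also followed along a C1q share, the C1q UMIs of a cell divided by its C1q and monocyte-list UMIs, across both gates. Ly6c2 fell along the share, from 943 CPM in cells with no C1q to 664, 223, 222 and 39.4 CPM in Control, where the intervals of 223 and 222 overlapped. In IR it was lower at each step, from 1687 to 1358, 997, 664 and 301 CPM. IR was higher in all 5 bins, with log2 ratios of 0.84 in cells with no C1q and 2.94 (2.79 to 3.08) in the bin with most. Over both gates together Ly6c2 was 206 and 1134 CPM, a log2 ratio of 2.46, and 1.54 when the IR bins were given the Control bins' weights.
Ly6a did not follow the C1q share: it lay between 619 and 747 CPM over the bins in Control and between 1495 and 1759.8 in IR, and its ratio was 1.26 without and 1.29 with the Control weights. For Ly6e the values were 0.64 and 0.52. Ly6i, which ran from 191 to 57.2 CPM along the share in Control, had 0.73 over both gates but 0.24 with the Control weights, and its interval lay above 0 in 1 of 5 bins. The part of the mix of cells in these differences was not tested.

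**Figure D3:**
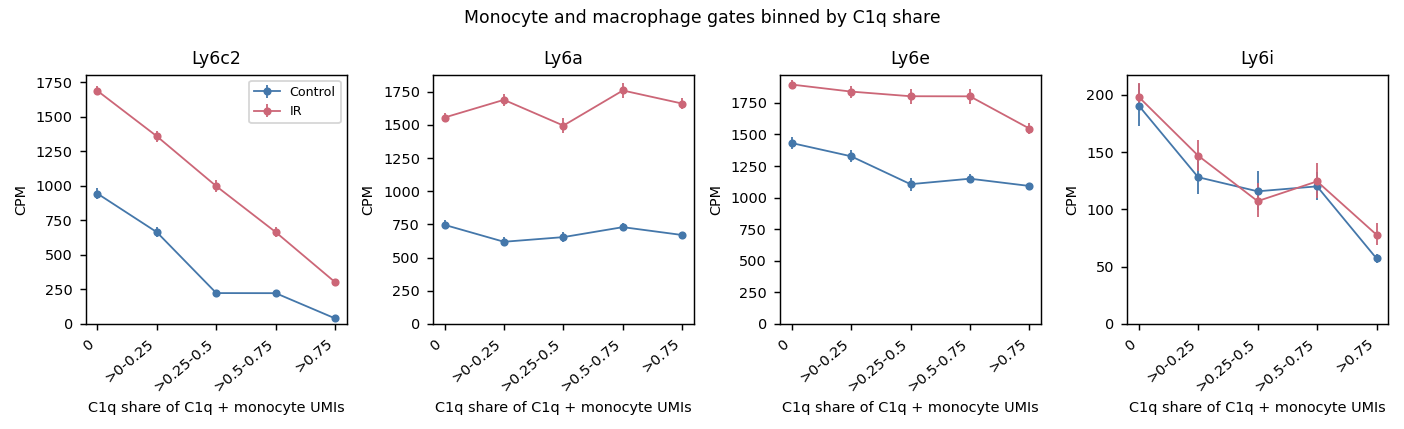
CPM (y axis) of 4 Ly6 genes in cells of the monocyte and macrophage gates, binned by C1q share (x axis), for Control and IR with 95% Poisson intervals. Ly6c2 falls from left to right in both libraries, from 943 to 39.4 CPM in Control and from 1687 to 301 CPM in IR, while Ly6a stays level. Between the Control bins of 223 and 222 CPM it is level.

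Per cell, with every cell thinned to 1000 UMIs so that depth does not enter, Ly6c2 was detected in 32.8% (29.6% to 36.1%) of Control and 56.7% (53.7% to 59.6%) of IR monocytes, and in 5.15% and 25.3% of macrophages (without thinning 52.1% and 81.3%, and 17.8% and 53.6%; Clopper-Pearson intervals). Cells with 3 or more Ly6c2 UMIs were 10.3% and 24.7% of monocytes and 0.482% and 4.51% of macrophages. Mature DCs, a cell type with little Ly6c2 in Control, are set beside them: thinned in the same way, 0.758% and 5.16% had a Ly6c2 UMI. Without thinning, at median depths of 7682 and 9680 UMIs, the shares were 6.82% and 13.5%.
Ly6a was detected in 29.6% and 51.0% of thinned monocytes, 33.2% and 60.1% of macrophages and 23.5% and 54.6% of CD8 T cells, against 5.30% and 11.6% of mature DCs. Free RNA was estimated at 5.94% and 6.23% of the Ly6a level in monocytes, 9.28% and 4.48% in macrophages and 13.7% and 27.7% in CD8 T cells. Cells with both Ly6a and Ly6c2 were 10.0% of Control and 30.9% of IR monocytes, 2.89% and 21.0% of macrophages, and 9.02% and 34.0% of CD8 T cells. Each gene by itself was also detected in more IR cells of these gates. Whether the 2 fell in the same cells more often than their separate shares give was not tested.
NK cells showed another pattern. Ly6c2 was detected in 18.7% (14.6% to 23.5%) of Control and 16.3% (12.9% to 20.2%) of IR NK cells, while those with 3 or more UMIs were 5.08% and 6.62%. Ly6a in the same cells went from 14.6% to 26.2%, and cells with both from 5.71% to 6.62%. At full depth, with medians of 6620 and 7513 UMIs per cell, 90 of 315 Control and 132 of 423 IR NK cells had a Ly6c2 UMI, and 5 cells held 23.6% and 22.0% of these UMIs.

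**Figure D4:**
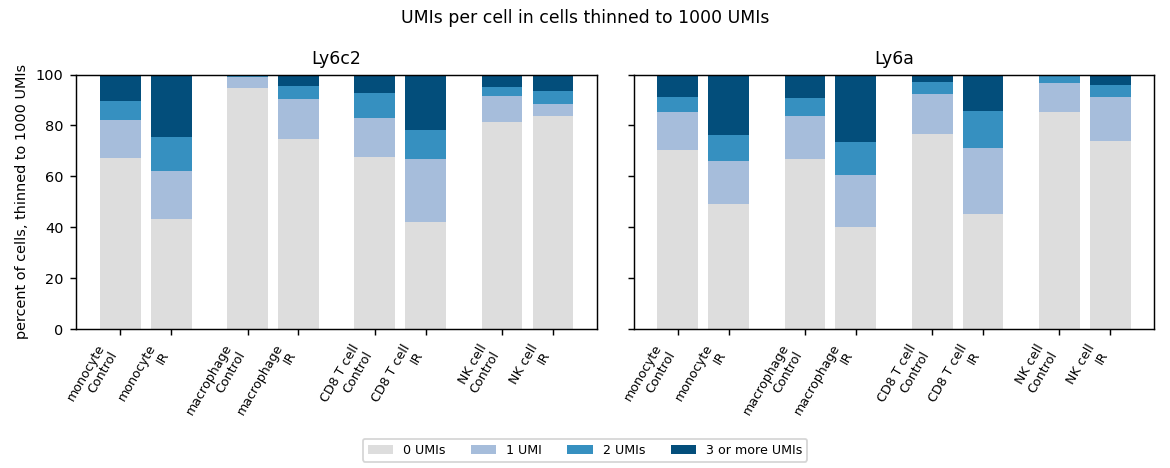
Percent of cells (y axis) with 0, 1, 2 and 3 or more UMIs of Ly6c2 and Ly6a after each cell was thinned to 1000 UMIs, by gate and library (x axis). Cells with 3 or more Ly6c2 UMIs are 10.3% of Control and 24.7% of IR monocytes, and 5.08% and 6.62% of NK cells.

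A list of 14 interferon-response genes (such as Isg15, Ifit3 and Irf7) moved with the members. Its summed level was 1136 and 4071 CPM in monocytes, 814 and 2834 in macrophages, 401 and 2046 in CD8 T cells and 394 and 1172 in NK cells, and all 14 genes were higher in IR in each of these gates. In nonclassical monocytes, where only Ly6a was higher in IR, the list was also higher, 1129 and 2650.1 CPM with all 14 genes. The members' own response was therefore set beside the list within bins of interferon-list UMIs per 1000 UMIs of a cell, a split added after the data were seen.
In both libraries Ly6a and Ly6c2 were higher in monocytes with more interferon-list UMIs. Ly6a ran from 446 CPM in the Control bin of 0 per 1000 UMIs to 1875 in that of 6 or more, and in IR from 708 to 2487. Ly6c2 ran from 373 to 1796 and from 1034 to 2319. Within bins Ly6a remained higher in IR in all 4, with log2 ratios of 0.41 to 0.85. Ly6c2 had 1.47 (1.36 to 1.58) in the bin of 0 and 0.03 (-0.08 to 0.14) in that of 3 to 5.
With the Control bins' weights the monocyte ratios were 0.61 for Ly6a (1.21 unweighted), 0.78 for Ly6c2 (1.14), 0.28 for Ly6e (0.49) and -0.29 for Ly6i (0.19). In macrophages the weighted ratios were 0.93 for Ly6a and 2.22 for Ly6c2, and both genes stayed higher in IR in all 4 bins. In NK cells Ly6c2 was lower in IR within the bins of 0 (-0.28, -0.43 to -0.12) and of 1 to 2 UMIs per 1000 (-0.32, -0.51 to -0.13), which held 236 and 76 of the 315 Control cells. How far the interferon response makes these differences was not tested.

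**Figure D5:**
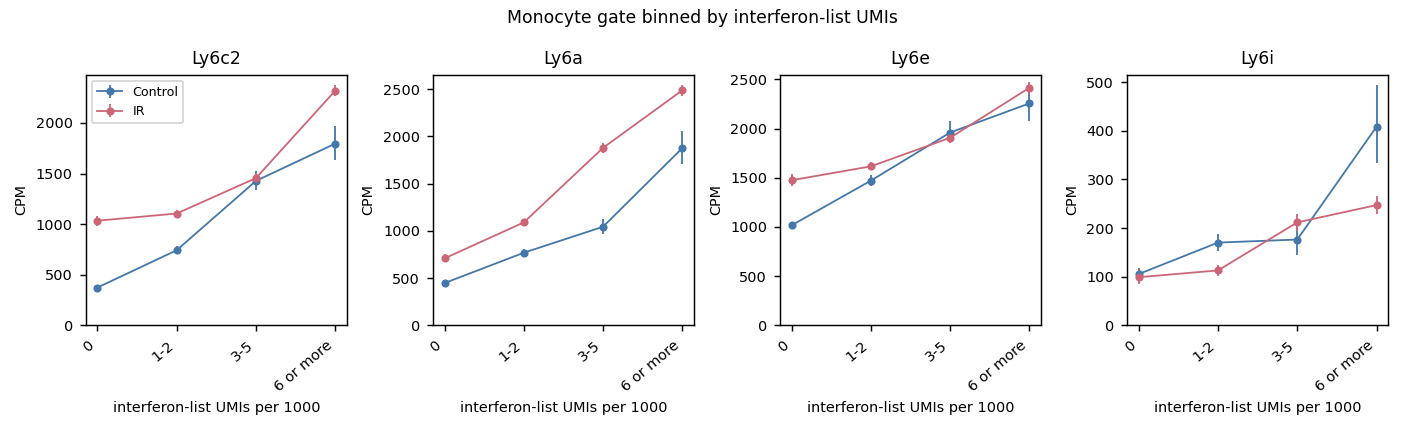
CPM (y axis) of 4 Ly6 genes in the monocyte gate, binned by interferon-list UMIs per 1000 UMIs of a cell (x axis), for Control and IR with 95% Poisson intervals. Ly6a is higher in IR in every bin, Ly6c2 coincides at 3 to 5 UMIs (1427 and 1455 CPM), and Ly6i is lower in IR at 1 to 2 and at 6 or more.

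Empty droplets, barcodes far down the ranking with 3 to 67 UMIs in Control and 3 to 40 in IR, carried the members too. Ly6a was 713 CPM in Control and 1306 in IR (log2 ratio 0.87, 0.76 to 0.99), Ly6c2 323 and 684 (1.08, 0.92 to 1.24), Ly6e 1214 and 1501 (0.31, 0.21 to 0.40) and Ly6i 42.5 and 74.3 (0.80, 0.33 to 1.28). Free RNA therefore differed between the libraries in the same direction as the cells.
Its share of a gate's UMIs was estimated from genes the gate should lack. From T cell genes it was 5.70% and 7.54% in monocytes, where it would give 2.74% and 3.47% of the Ly6c2 level, and 8.82% and 5.83% in macrophages, where it would give 40.03% of the low Control Ly6c2 level and 9.06% of the IR level. From C1q, which doublets also raise, it was 7.01% and 22.8% in CD8 T cells, or 3.91% and 13.6% of their Ly6c2. In mature DCs it would give 70.9% of Control and 31.2% of IR Ly6c2. For Ly6c1 in T cells it reached 89.4% and 178%, on 9 and 22 UMIs. The IR estimate exceeds the whole level, so it cannot tell whether any Ly6c1 there stood above free RNA.

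The wider family was mostly silent. Of 30 further genes of the Ly6 domain family, 9 had no UMI in gated cells and 23 had fewer than 20. The 5 with at least 100 were Plaur, the urokinase receptor (304 and 651 CPM over gated cells, highest in IR neutrophils at 2006), Ly6d (5.70 and 4.55, with 107 of its 202 Control UMIs in 10 plasmacytoid DCs), Ly6g5b (4.32 and 3.87), Slurp1 (2.28 and 2.79, 69 of its 81 Control UMIs in collagen-expressing cells) and Cd59a (1.49 and 1.55). In monocytes 1 of 3 family genes with at least 20 UMIs was 1.5 times higher in IR, beside the 8.96% of all genes.
The GPI anchor that all members need is built and attached by a separate set of enzymes. Of 22 such genes 21 had a row, all with at least 100 UMIs. In monocytes 2 of 21 were higher in IR by 1.5 times, a share near the 8.96% of all genes, and 1 lower, with a median log2 ratio of -0.07 against -0.04 for all genes, and in macrophages 1 was higher, against 7.72% of all genes, and 2 were lower, with a median of 0.06 against -0.08.

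Genes with the most similar pattern were taken over the 16 gate-by-library populations of at least 50 cells, by Pearson's r of log2(CPM + 10) among 4916 genes. The populations share libraries and free RNA, so r is a description. Ly6e was closest to Laptm5 (r = 0.94), Itgb2 (0.92) and Vsir (0.92). Ly6i was closest to Msrb1 (0.97), Rbms1 (0.96) and Ifi207 (0.96). Ly6c2 was closest to Sp100 (0.87), Errfi1 (0.83) and Plac8 (0.83), the last of which is in the monocyte list. Ly6a was closest to Capg (0.87), Pkm (0.82) and S100a10 (0.82). Ly6c1 had Atp6v1d (0.73), Ecm1 (0.71) and Bad (0.68), at levels of at most 9.45 CPM because the collagen-expressing cells were too few to enter.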

How the data were processed

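Cells from MC38 tumors were captured with a 10x Genomics 3' v3.1 kit in 1 Control and 1 IR library. The authors aligned the reads to mm10 and deposited unfiltered UMI counts per gene and barcode, made with Cell Ranger 6.0.1 according to the submitters' processing notes, whereas the matrix header gives version 4. The files held 48593879 (Control) and 42406461 (IR) UMIs in 1067746 and 990007 barcodes.

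Barcodes with at least 1000 UMIs, at least 200 genes and at most 25% mitochondrial UMIs were kept. Each was assigned to a gate by marker lists scored per 1000 UMIs, with macrophages and monocytes separated by C1q against 6 monocyte genes (Plac8, Ccr2, Ms4a4c, Chil3, Hp and F13a1). Barcodes passing lists of different lineages, or a lineage list other than that of neutrophils with at least 2 C1q UMIs per 1000, were treated as doublets and left out (284 Control, 99 IR), as were 207 and 185 barcodes passing none, except where stated. Counts were summed per gate and divided by the gate's UMIs (CPM). Poisson intervals for levels and exact (Clopper-Pearson) binomial intervals for shares, and for ratios through the share of UMIs in IR, had a confidence level of 95%. A count of 0 allows 3 counts. Positions and windows came from GENCODE vM21, and promoter sequences from RefSeq (GRCm38.p6), which had 3 of the 6 members. All members, the family genes with at least 100 UMIs and the 3 genes most like each member are named. The members and lists were chosen with earlier results of these data known. Alternatives covered UMI and mitochondrial limits, doublet scores, gate lists and scoring depth, scaling, free RNA subtraction and weighting of cells. The scripts were tested on simulated data. Python 3.11.15, numpy 2.4.6, scipy 1.17.1, scanpy 1.11.5 (Scrublet), matplotlib 3.10.9, Biopython 1.88, R 4.3.3, edgeR 4.0.16 (TMM factors only) and DESeq2 1.42.0 (size factors only) were used.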

Additional observations from a re-analysis of the deposited data

Results flagged for a closer look

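Ly6e and Ly6i differed in direction between gates under the same contrast, and the differences between gates were not tested. For Ly6e the log2 ratio of IR to Control was 0.49 in monocytes, 0.58 in macrophages, 0.52 in CD8 T cells, 0.20 in NK cells and 0.31 in mature DCs, against -0.17 in nonclassical monocytes. For Ly6i it was 0.19 in monocytes, 0.45 in macrophages, 0.70 in CD8 T cells, 1.23 in CD4 T cells, 1.95 in Foxp3 T cells, 1.10 in NK cells and 1.78 in mature DCs, against -0.41 in nonclassical monocytes. In Foxp3 T cells 23 of the 45 Ly6i UMIs of the IR library were in 1 cell.

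Ly6c1 was abundant among barcodes that no gate took, at 251 CPM in Control and 823 CPM in IR. With the collagen list lowered to a score of 0.1 per 1000 UMIs, a setting chosen after the data were seen, 101 Control and 106 IR barcodes were taken as collagen-expressing and had 698 and 1497 CPM, and the remaining ungated barcodes had 15.5 and 88.9 CPM.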

How the results depend on the processing

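In monocytes and macrophages 107 of 149 alternative log2 ratios moved by no more than the counting interval of the reported value, 40 moved further, and of the 135 whose reported interval lay off 0, 133 kept their sign and 2 changed it. The causes of the moves were not tested. In the other 4 gates taken through the alternatives (all T cells, NK cells, all DCs and neutrophils) 193 of 229 stayed within the interval, 32 moved and 4 whose reported interval lay off 0 changed sign. Ly6c2 in NK cells was -0.047 without the 6% highest Scrublet scores and -0.19 with gates scored at 1000 UMIs. Ly6a over all DCs was -0.23 with gates scored at 1000 UMIs, and Ly6e in neutrophils was -0.25 with at least 2000 UMIs per barcode. No alternative log2 ratios were made for nonclassical monocytes, mature DCs by themselves or the T cell subsets. In monocytes, gates scored at 1000 UMIs gave 1.29 for Ly6a, 2.42 for Ly6c1, 0.92 for Ly6c2 and 0.38 for Ly6e. The monocyte list of 4 genes gave 1.36 for Ly6a, 2.63 for Ly6c1, 0.55 for Ly6e and 0.32 for Ly6i there, and 3.05 for Ly6c2, 0.62 for Ly6e and 0.63 for Ly6i in macrophages. Leaving out mitochondrial and ribosomal protein UMIs gave 1.14, 1.07 and 0.42 for Ly6a, Ly6c2 and Ly6e in monocytes, and 1.24 and 0.49 for Ly6a and Ly6e in macrophages. The mean over cells gave 0.996 and 0.38 for Ly6c2 and Ly6e in monocytes, and 1.43, 0.20 and 2.83 for Ly6a, Ly6c1 and Ly6c2 in macrophages. Size factors of DESeq2 and TMM gave 0.53 and 0.54 for Ly6e in monocytes. In macrophages, free RNA subtraction gave 1.40, 3.23 and 0.65 for Ly6a, Ly6c2 and Ly6e, and Scrublet 0.63 and 2.81 for Ly6c1 and Ly6c2. Ly6c1 in macrophages, whose reported interval held 0, thus changed sign under Scrublet and the mean over cells. Among other values whose interval held 0, Ly6c1 over all DCs turned to 0.999 under Scrublet and 0.46 as the mean over cells, Ly6e over all DCs to -0.0059 with free RNA subtracted, and Ly6i in neutrophils to 0.0011 with gates scored at 1000 UMIs. Summing Ly6a with Ly6i gave 1.07 in monocytes and 1.27 in macrophages, and summing Ly6c2 with Ly6c1 gave 2.50 in macrophages. Of settings chosen after the data were seen, monocytes with no C1q UMI gave 1.06, 0.84, 0.40 and 0.056 for Ly6a, Ly6c2, Ly6e and Ly6i. Monocytes in the lowest interferon bin gave 0.66, 1.47 and 0.54 for Ly6a, Ly6c2 and Ly6e, and the sign changed for Ly6c1 (-0.59) and Ly6i (-0.092). Macrophages in the highest C1q bin gave 2.94 for Ly6c2 and 0.50 for Ly6e.

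No paired analysis was possible because each group is 1 library. Thinning to 2000 UMIs moved 29 of 40 shares of cells beyond their intervals, since deeper counts detect more cells, and the 12 empty-droplet levels stayed within theirs. Ly6g and Ly6c1 in leukocytes are limited by their counts.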

Other observations

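Among barcodes outside every gate in Control, 4 with at least 10 UMIs of Jchain, a gene of antibody-secreting cells, held 611 of 873 Ly6c2 UMIs (5204 CPM). The other 203 barcodes had 112 CPM. The IR library had no barcode with as many Jchain UMIs among its ungated cells, and its 185 ungated barcodes had 92.5 CPM. The count of 10 was chosen after the data were seen.

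Plasmacytoid DCs, 10 in Control and 9 in IR, had 1961 and 2920.2 CPM of Ly6e and 1732 and 1531 CPM of Ly6a.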
